A study of Homo sapiens with 12 samples.

Results

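The 9 genes SQLE, LSS, CYP51A1, MSMO1, NSDHL, HSD17B7, EBP, SC5D and DHCR7 encode enzymes that carry squalene through lanosterol to cholesterol. They were taken by gene symbol from the tables of all 12 libraries, which share 25647 genes. All 9 passed the filter on low counts and were among the 16394 genes tested.

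Cholesterol is built in the endoplasmic reticulum membrane. SQLE adds oxygen to squalene and LSS folds the epoxide into lanosterol, the first sterol. CYP51A1 starts the removal of 3 methyl groups by taking off the one at carbon 14, and MSMO1, NSDHL and HSD17B7 act in turn on those at carbon 4. EBP then shifts a double bond in the ring, SC5D adds another and DHCR7 reduces one to leave the cholesterol ring. Genes of the route are known targets of SREBP2, a membrane-bound transcription factor that is released to the nucleus when membrane sterol is low.

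RNA was read as poly(A)-selected libraries from A549 (lung adenocarcinoma), HCT116 (colorectal carcinoma) and MHCC97H (hepatocellular carcinoma) cells. Each line was either untreated or given one compound. TSA, at 1 µM, is trichostatin A and blocks histone deacetylases. GSK126, at 50 µM, blocks EZH2, which methylates histone H3. S2101, at 100 µM, blocks LSD1, a demethylase encoded by KDM1A. A549 and MHCC97H grew in DMEM and HCT116 in RPMI 1640, so the effects of medium and of the HCT116 line cannot be told apart. How long cells were treated, and whether untreated cells received a vehicle, is not given in the sources used here. A condition holds 1 library per line, so its replicates are the 3 lines (n = 3). For compounds, p-values rest on how much differences between conditions vary across lines, over all 12 libraries, and not on repeat cultures. In a comparison of lines, the replicates of a line are its libraries under 4 different conditions. In these bulk libraries, fewer cells of a kind and less RNA per cell cannot be told apart.

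The stretches just upstream of the genes are shown because the members' levels varied together across libraries (the correlations are given further on). RefSeq promoter entries on GRCh38.p14 matched 8 of the 9 genes, all but SQLE, with 10 windows of 250 bases, since DHCR7 and SC5D each have a second start there. Both strands were searched for the CCAAT box (CCAAT), the GC box (GGGCGG), a strict and a loose form of the sterol regulatory element (TCACNCCAC and TCACNNCA) and the E-box CACGTG. Below are the 4 windows that end at the base before the gene start of LSS (chr21:46228775-46229024, minus strand), MSMO1 (chr4:165327419-165327668, plus strand), NSDHL (chrX:152830813-152831062, plus strand) and EBP (chrX:48521558-48521807, plus strand), printed 5′ to 3′. Capitals mark CCAAT and GGGCGG on either strand (ATTGG and CCGCCC on the other) and TCACNNCA.
LSS: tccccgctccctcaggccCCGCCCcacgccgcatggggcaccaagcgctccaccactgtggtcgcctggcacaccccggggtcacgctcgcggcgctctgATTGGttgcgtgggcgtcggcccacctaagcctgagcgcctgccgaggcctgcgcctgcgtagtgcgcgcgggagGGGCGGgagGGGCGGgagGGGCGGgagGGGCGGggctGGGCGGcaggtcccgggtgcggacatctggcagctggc
MSMO1: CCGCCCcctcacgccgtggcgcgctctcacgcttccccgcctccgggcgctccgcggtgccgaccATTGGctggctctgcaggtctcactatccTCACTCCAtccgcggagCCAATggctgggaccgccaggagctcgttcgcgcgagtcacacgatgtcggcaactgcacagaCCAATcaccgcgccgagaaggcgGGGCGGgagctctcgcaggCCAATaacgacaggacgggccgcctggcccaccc
NSDHL: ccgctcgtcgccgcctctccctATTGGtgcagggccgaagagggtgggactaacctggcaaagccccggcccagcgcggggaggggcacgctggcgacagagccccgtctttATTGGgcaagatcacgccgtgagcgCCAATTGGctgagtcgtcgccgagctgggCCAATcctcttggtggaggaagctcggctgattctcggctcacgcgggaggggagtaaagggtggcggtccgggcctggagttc
EBP: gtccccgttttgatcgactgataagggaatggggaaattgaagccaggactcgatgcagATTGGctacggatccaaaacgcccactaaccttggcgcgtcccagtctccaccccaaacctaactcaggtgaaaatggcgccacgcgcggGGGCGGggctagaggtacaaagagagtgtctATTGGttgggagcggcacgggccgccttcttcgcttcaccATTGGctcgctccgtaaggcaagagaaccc
CCAAT was in windows of 7 of the 8 genes, all but CYP51A1. By window it was in 8 of the 10, against 32.0% of 35116 promoter windows in the table. The windows of SC5D overlap and hold the same CCAAT, which is counted in each. In NSDHL a forward and a reverse copy overlap. GGGCGG was in windows of 7 of the 8 genes, all but NSDHL, and in 8 of the 10 windows, against 42.6%. For DHCR7 both motifs were in the window of its second start alone. The loose element TCACNNCA was in the MSMO1 window alone (10.4% of all windows), the strict form TCACNCCAC in none (0.883%) and CACGTG in the overlapping SC5D windows (6.34%). These are matches of letters and not measured binding sites.

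Library totals lay between 14468304 and 19061367 counts. On the CPM scale, on which all library totals are made equal, 3 reads were worth 0.157 to 0.207, and this floor covers counting error only. The least counted member value was 110 reads, for HSD17B7 in untreated MHCC97H. Of 10 liver markers, 6 reached 1 CPM in untreated MHCC97H, with APOA2 and TTR at 0 reads, and their sum was 103 scaled CPM there against 43.0 in A549 and 13.4 in HCT116. Of 7 lung markers, 1 did so in untreated A549, with NKX2-1 at 0, and 3 in HCT116, with sums of 2.48 and 4.96. Of 7 gut markers, 1 did so in untreated HCT116, with CDX1, LGR5 and FABP1 at 0 and a sum of 12.7, and 3 in MHCC97H, with a sum of 166 of which CDH17 made up 134. The lung and gut lists were thus not highest in the lines of those tissues. The A549 S2101 library held low levels of genes otherwise seen under TSA: over 32 genes under 0.1 CPM untreated and at least 10 CPM under TSA in A549, its median was 7.80% of the TSA gain, against 1.70% under GSK126 in the same line. The compounds act on proteins, so target mRNA does not check the labels: the fitted log2 change was -0.82 for EZH2 under GSK126 (edgeR adjusted p = 0.139) and -0.32 for KDM1A under S2101 (adjusted p = 0.936).

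Untreated cells held RNA of all 9 enzymes, at unequal levels. On the authors' RPKM scale, which corrects for transcript length, EBP was highest in each line, at 73.5 in MHCC97H, 49.6 in A549 and 39.2 in HCT116, followed by CYP51A1 at 63.0, 49.2 and 36.8. The gap between these neighbours was smaller than the spread of either over the lines (EBP 54.1 ± 17.6, CYP51A1 49.6 ± 13.1 RPKM; SD, n = 3). SQLE (43.1 ± 16.3), DHCR7 (36.4 ± 5.66), MSMO1 (30 ± 19.4) and NSDHL (25.3 ± 12.6) followed with RPKM values that overlapped one another. By the mean, LSS stood lower at 12.4 ± 2.02 RPKM, and HSD17B7 (7.37 ± 2.53) and SC5D (5.66 ± 2.10) lowest. In HCT116, however, LSS (14.8 RPKM) was above NSDHL (13.6). HSD17B7 was the lowest member in MHCC97H (4.47 RPKM) and SC5D in A549 (3.59) and HCT116 (5.61). RPKM here rests on the longest transcript, which is 7019 bases for SC5D and 1191 for EBP. In scaled CPM, with no length correction, the untreated mean of SC5D was 42.1, near NSDHL (45.0) and above HSD17B7 (11.7). From the highest member to the lowest the RPKM ratio was 16.5 in MHCC97H, 13.8 in A549 and 6.98 in HCT116.

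Below, levels are CPM after TMM scaling of the library totals, in the order MHCC97H, A549, HCT116. The 9 members together held 978, 667 and 481 scaled CPM in untreated cells, 2187, 2274 and 1487 under GSK126, 1568, 1519 and 808 under S2101, and 1322, 910 and 434 under TSA. Their sum was therefore higher than in the untreated library of the same line in each GSK126 and S2101 library, and under TSA in MHCC97H and A549 but not in HCT116.

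**Figure D1:**
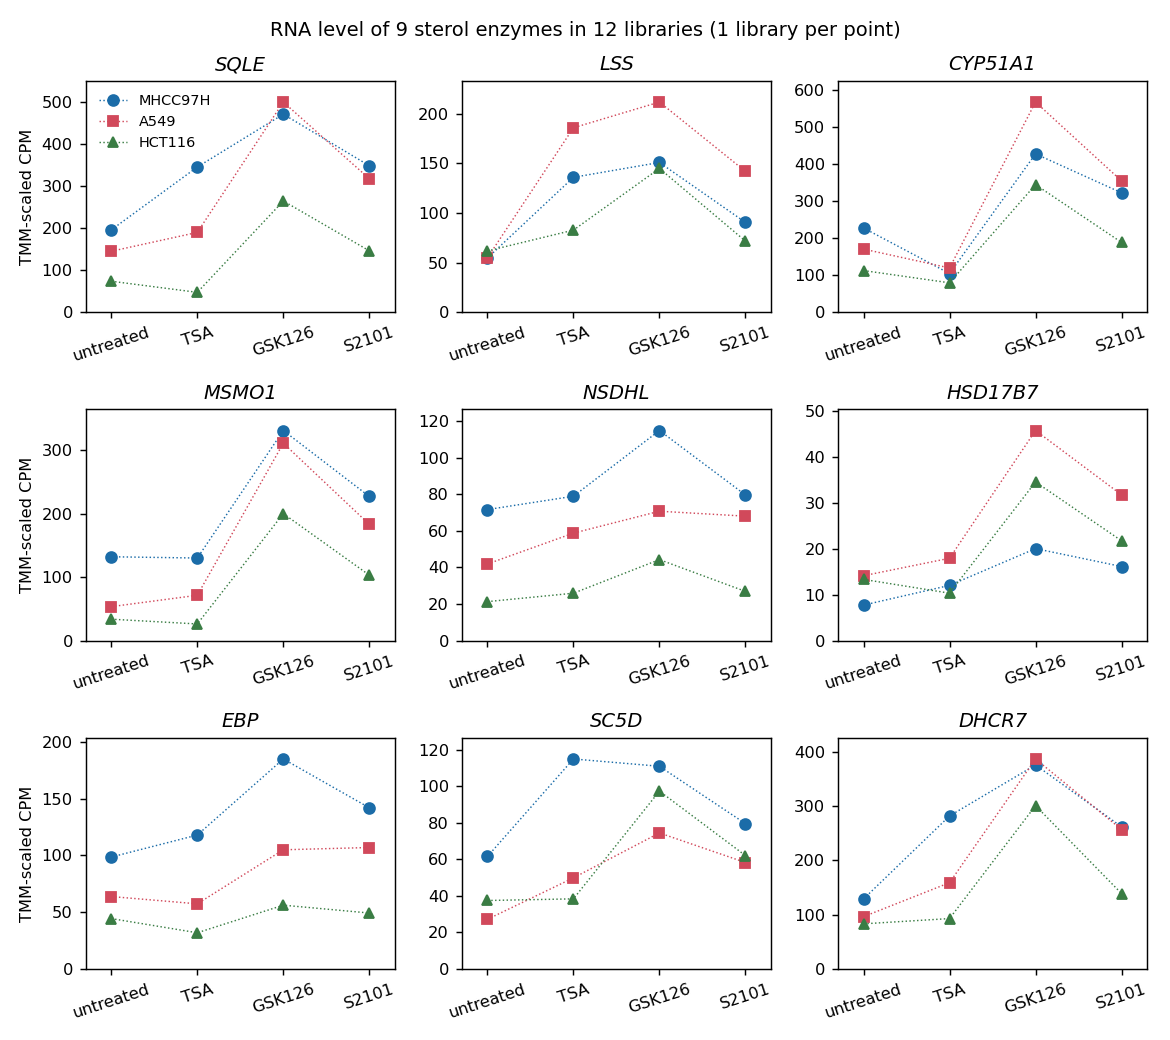
TMM-scaled CPM (vertical axis, from 0) of each of the 9 enzymes in the 12 libraries, 1 point per library, by condition (horizontal axis) and cell line (colour and symbol); dotted lines join the libraries of a line and imply no order of conditions. In each panel the GSK126 point of a line lies above its untreated point, and for CYP51A1 the 3 TSA points lie below the untreated points of their lines.

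SQLE, the epoxidase, stood at 196, 145 and 73.5 scaled CPM in untreated cells, at 472, 501 and 265 under GSK126, at 349, 318 and 146 under S2101 and at 346, 190 and 47.0 under TSA. The GSK126 libraries all lay above the untreated ones, whereas the S2101 and TSA ranges overlapped them. Under TSA the HCT116 library was lower than its untreated partner while the other lines were higher. SQLE lies on chromosome 8 and overlaps no other RefSeq gene.

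LSS, the cyclase (chromosome 21, positions 46188446 to 46228774 of GRCh38.p14, minus strand), stood at 54.5, 54.7 and 61.7 scaled CPM untreated, at 151, 212 and 145 under GSK126, at 90.5, 142 and 71.6 under S2101 and at 136, 186 and 82.7 under TSA. Untreated LSS differed little between lines (57.0 ± 4.09 scaled CPM, SD, n = 3), and every treated library lay above every untreated one. Of the members, LSS had the highest within-line value under TSA in each line, with log2 values of 1.30, 1.75 and 0.42.

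CYP51A1, the cytochrome P450 that removes the methyl group at carbon 14 (chromosome 7, positions 92112153 to 92134803, minus strand), stood at 227, 170 and 112 scaled CPM untreated, at 427, 567 and 344 under GSK126, at 322, 354 and 188 under S2101 and at 104, 119 and 78.9 under TSA. Every GSK126 library was above every untreated one, and the S2101 range overlapped the untreated range. The TSA libraries were each below their untreated partner, with A549 under TSA just above untreated HCT116. No other member was lower under TSA in all 3 lines.

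MSMO1, the methyl sterol oxidase (chromosome 4, positions 165327669 to 165343164, plus strand), stood at 132, 53.4 and 33.6 scaled CPM untreated, at 331, 311 and 200 under GSK126, at 227, 183 and 103 under S2101 and at 130, 71.3 and 26.1 under TSA. It had the largest within-line folds of the members under GSK126 in A549 (5.83-fold) and HCT116 (5.94-fold), against 2.52-fold in MHCC97H, where the untreated level was highest. The GSK126 libraries did not overlap the untreated ones, while the S2101 and TSA libraries did.

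NSDHL, the sterol dehydrogenase that takes off the carboxyl group left by MSMO1 (chromosome X, positions 152831063 to 152869729, plus strand), stood at 71.7, 41.9 and 21.3 scaled CPM untreated, at 115, 70.8 and 44.3 under GSK126, at 79.7, 68.1 and 26.9 under S2101 and at 79.0, 58.8 and 25.9 under TSA. Each treated library was above its untreated partner, and the ranges of all conditions overlapped. HSD17B7, the 3-ketosteroid reductase (chromosome 1, positions 162790702 to 162812823, plus strand), stood at 7.71, 14.1 and 13.3 scaled CPM untreated, at 20, 45.7 and 34.5 under GSK126, at 16.1, 31.7 and 21.7 under S2101 and at 12, 17.9 and 10.3 under TSA. Its GSK126 and S2101 libraries all lay above the untreated ones, and its TSA range overlapped them. HSD17B7 values are uncertain because the pseudogene HSD17B7P2, listed at 0 to 91 reads a library, could share its reads.

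EBP, the isomerase (chromosome X, positions 48521808 to 48528716, plus strand), stood at 98.6, 63.8 and 44.4 scaled CPM untreated, at 185, 105 and 56.2 under GSK126, at 142, 107 and 49.3 under S2101 and at 118, 57.4 and 31.9 under TSA. Ranges of all conditions overlapped, with MHCC97H highest and HCT116 lowest in each. Under GSK126 the within-line fold of EBP was 1.27 in HCT116, the smallest of any member in a GSK126 library.

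SC5D, the desaturase (chromosome 11, positions 121292771 to 121313410, plus strand), stood at 61.6, 27.2 and 37.5 scaled CPM untreated, at 111, 74.5 and 97.4 under GSK126, at 79.6, 58.3 and 62.1 under S2101 and at 115, 49.9 and 38.4 under TSA. GSK126 libraries all lay above the untreated ones. In HCT116 the TSA and untreated libraries were nearly equal, with a within-line log2 change of 0.03. DHCR7, the reductase (chromosome 11, positions 71427287 to 71449043, minus strand), stood at 129, 96.4 and 83.2 scaled CPM untreated, at 376, 387 and 301 under GSK126, at 262, 257 and 139 under S2101 and at 282, 159 and 92.9 under TSA. Its GSK126 and S2101 libraries all lay above the untreated ones, and the HCT116 TSA library overlapped them. LSS, CYP51A1 and DHCR7 overlap non-coding RefSeq genes that the tables do not list (for CYP51A1 the antisense CYP51A1-AS1, for DHCR7 the divergent DHCR7-DT), so their values may include such reads, the use of strand in counting being unstated.

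The first comparison set GSK126 against untreated cells of the same lines. All 9 were higher in all 3 lines, as were 22.4% of the 16394 genes tested, and 8 of 9, all but EBP, were at least 1.5-fold higher in all 3 lines, as were 1.62% of genes. Fitted log2 changes ran from 0.65 ± 0.17 (SE) for EBP and 0.84 ± 0.16 for NSDHL to 1.81 ± 0.24 for DHCR7 and 2.16 ± 0.30 for MSMO1. Between these were SC5D (1.23 ± 0.25), CYP51A1 (1.41 ± 0.18), HSD17B7 (1.48 ± 0.22), LSS (1.52 ± 0.23) and SQLE (1.66 ± 0.32). The median over the 9 was 1.48, a 2.79-fold level, against 0.01 over all genes tested. No sign changed under any alternative fit, and MSMO1 ran from 1.95 to 2.59.

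By the edgeR quasi-likelihood test on all 12 libraries, 0 of the 9 passed an adjusted p of 0.05 under GSK126, and 0 of 16394 genes did (0% called higher). Adjusted p-values were 0.0603 for CYP51A1 and DHCR7, equal to the lowest of any gene, 0.0769 for MSMO1, 0.0802 for HSD17B7, 0.0889 for LSS, 0.0936 for SQLE, NSDHL and SC5D, and 0.120 for EBP. Unadjusted, p ranged from 1.81e-05 to 0.00421, and all 9 were below 0.05, as were 2784 genes in either direction and 7.81% of genes in the higher direction. DESeq2 on the same design called all 9 higher (3.48% of genes), with adjusted p from 3.47e-10 for CYP51A1 to 0.00788 for EBP. With the TSA libraries left out, edgeR also called all 9 higher (6.62% of genes), with adjusted p from 0.00295 for SQLE and DHCR7 to 0.0241 for EBP. On the GSK126 and untreated libraries alone it called 8, all but EBP (adjusted p = 0.0599), against 1.41% of genes. The calls changed with the test and with the libraries or genes in the fit: with all 12 libraries, edgeR called 3 members with no filter on low counts and 2 with a filter of 10 CPM, of 7 genes called in all with either. Fitted sizes moved little without the TSA libraries, where MSMO1 was 2.15 and EBP 0.68.

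**Figure D2:**
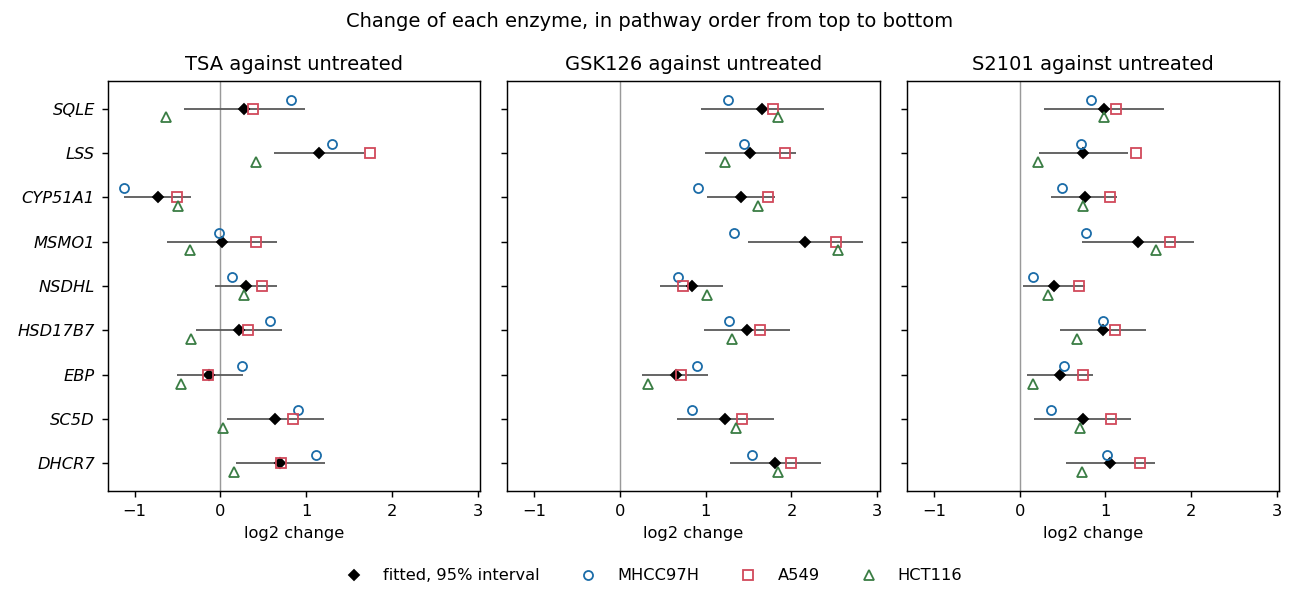
Log2 change of each enzyme against untreated for TSA, GSK126 and S2101, in pathway order from SQLE at the top to DHCR7. Open symbols are the within-line changes of log2(TMM-scaled CPM + 1) in the 3 lines and black diamonds the fitted changes over 12 libraries with 95% intervals; under GSK126 and S2101 every open symbol is to the right of 0, and under TSA those of CYP51A1 are to the left in all 3 lines.

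Under S2101 the fitted values had the same sign as under GSK126. All 9 enzymes were higher in all 3 lines (18.3% of genes), and 4 of 9, SQLE, MSMO1, HSD17B7 and DHCR7, at least 1.5-fold in all 3 lines (0.525% of genes). Fitted log2 changes were 1.38 ± 0.29 (SE) for MSMO1, 1.06 ± 0.23 for DHCR7, 0.99 ± 0.31 for SQLE, 0.97 ± 0.22 for HSD17B7 and 0.76 ± 0.17 for CYP51A1. LSS and SC5D were both at 0.74, EBP at 0.47 and NSDHL at 0.40, for a median of 0.76 against 0.00 over all genes. In A549 and HCT116 MSMO1 was again the member with the highest within-line log2 change (1.76 and 1.59), and in MHCC97H it was DHCR7 (1.02).

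None of these passed the edgeR test under S2101: 0 of 9 members and 0 of 16394 genes were called (0% higher), with an adjusted p of 0.936 for each member. Unadjusted, all 9 had p below 0.05 (0.000933 to 0.0342), as did 821 genes in either direction and 2.56% of genes in the higher direction. DESeq2 called 4, CYP51A1, MSMO1, HSD17B7 and DHCR7 (0.116% of genes), and edgeR on the S2101 and untreated libraries alone called 1, SQLE (0.123% of genes). All 9 had their highest within-line value under S2101 in A549, the library with the low TSA-like signal, from 0.69 for NSDHL to 1.76 for MSMO1. Without that library the fitted log2 changes were 0.29 for NSDHL, 0.36 for EBP and 0.64 to 1.34 for the other 7, with 0 members called. The part of that signal in the S2101 values was not tested.

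**Figure D3:**
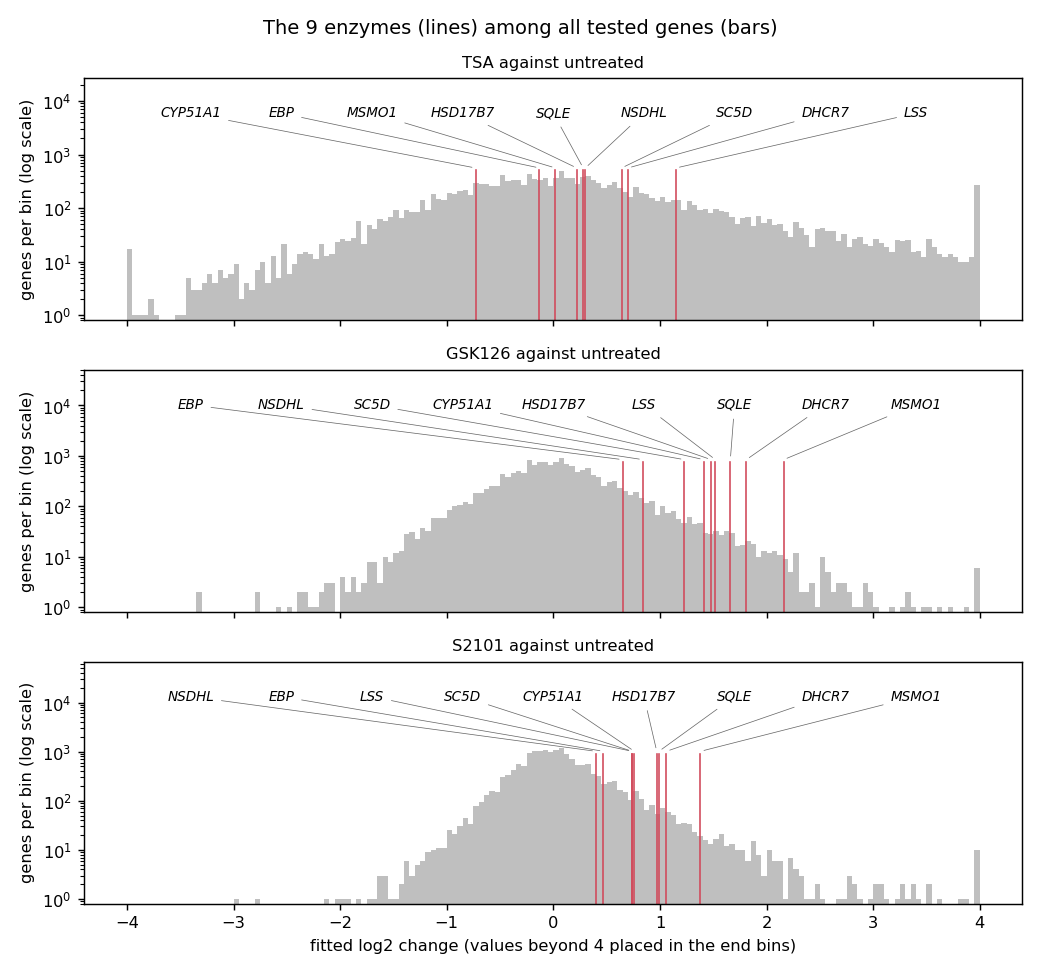
Number of genes (bars, log scale) by fitted log2 change against untreated over the 16394 genes tested, for each compound, with the 9 enzymes as red lines. Under GSK126 the enzymes lie between 0.65 and 2.16 and under S2101 between 0.40 and 1.38, on the higher side of a distribution centred near 0, whereas under TSA they spread from -0.73 to 1.15 within a wider one.

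The difference between GSK126 and S2101 was also fitted. All 9 members had positive values for GSK126 against S2101, from 0.18 for EBP to 0.78 for MSMO1, with a median of 0.66 against 0.00 over all genes. Levels were higher under GSK126 than under S2101 in all 3 lines for 8 of 9, all but EBP (14.7% of genes). By edgeR 0 members and 0 genes were called (0% higher, adjusted p = 1), and DESeq2 called 0 of both (lowest member adjusted p = 0.727). Unadjusted p was below 0.05 for 6 members (LSS, CYP51A1, MSMO1, NSDHL, HSD17B7 and DHCR7) and 455 genes. The 95% intervals of the log2 difference ran from 0.25 to 1.29 for LSS and from -0.21 to 0.56 for EBP. The doses differed (50 µM and 100 µM), so these values compare the treatments as given and not equal amounts.

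Under TSA the members did not share a direction. LSS rose, with a fitted log2 change of 1.15 ± 0.23 (SE; 2.22-fold; edgeR adjusted p = 0.0073), and DHCR7 rose by 0.70 ± 0.23 (1.62-fold; adjusted p = 0.0438), both higher in 3 of 3 lines. CYP51A1 fell to 0.604 of its untreated level (log2 -0.73 ± 0.17; adjusted p = 0.0132), lower in 3 of 3 lines. The call of DHCR7 was lost with no filter on low counts (adjusted p = 0.0539) and without the A549 S2101 library (adjusted p = 0.0533). Of all genes 17.1% were called higher and 17.1% lower, so 2 and 1 of 9 members are near the background. SC5D had a log2 change of 0.64 ± 0.25 with an adjusted p of 0.0742. The other 5 ran from -0.13 for EBP to 0.30 for NSDHL, with adjusted p of 0.170 or more. With LSS, DHCR7, NSDHL and SC5D, 4 of 9 were higher in all 3 lines (28.3% of genes). The members' median was 0.28 against 0.07 for all genes.

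Values under TSA are given by line, with no test of the difference between lines. The members' median within-line log2 change was 0.58 in MHCC97H and 0.41 in A549, where 7 of 9 were higher, and -0.34 in HCT116, where 4 were. Scaled by library totals alone, in place of TMM, the medians were 0.76, 0.63 and -0.27, and 8 of 9 were higher in MHCC97H and in A549, where MSMO1 (0.18) and EBP (0.07) changed sign. The 3 calls did not hold without MHCC97H or without A549, when 0 members were called, and 4 were called without HCT116 (LSS, CYP51A1, SC5D and DHCR7). Calls over all genes moved likewise, from 5598 to 1152 without MHCC97H, 12 without A549 and 6495 without HCT116, so the lost calls are not particular to the members. Sizes without MHCC97H were 1.08 for LSS, 0.45 for DHCR7 and -0.49 for CYP51A1, without A549 0.91, 0.72 and -0.79, and without HCT116 1.57, 0.98 and -0.80. The summed scaled CPM of a fibroblast list of 4 genes was also higher under TSA. It was 1.54 to 24.6 untreated, 0.995 to 38.8 under GSK126, 0.693 to 25.7 under S2101 and 42.8 to 91.3 under TSA. Most of the sum under TSA was COL1A1 alone: 36.9 of 42.8 in MHCC97H, 90.5 of 91.3 in A549 and 63.0 of 65.2 in HCT116. Under TSA DCN was at 0 reads in A549 and COL1A2 at 0 in HCT116. The part of these transcripts in the results under TSA was not tested.

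TSA was also set against the other compounds directly, and the members called were all lower under TSA. Against GSK126, 7 of 9 members were called lower (14.2% of genes), from -0.53 for NSDHL to -2.14 for CYP51A1 and MSMO1 (adjusted p = 0.00114 and 0.00258). LSS (-0.36, adjusted p = 0.255) and SC5D (-0.59, adjusted p = 0.103) were not. Against S2101, 4 were called lower, CYP51A1 (-1.48), MSMO1 (-1.36), HSD17B7 (-0.75) and EBP (-0.60), beside 13% of genes. LSS alone had a positive value there, 0.41 with a 95% interval from -0.11 to 0.93. Leaving out A549 left 0 members called in both comparisons. Over all genes the calls then went from 4707 to 0 against GSK126 and from 4306 to 17 against S2101. The count against S2101 was also 0 without MHCC97H, where 0 genes in all were called, and 2 without HCT116 (5144 genes) or without the A549 S2101 library (1926 genes).

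Levels of the members were correlated across libraries. With each line's mean removed, the 36 pairs had a median Pearson r of 0.85 over the 12 libraries, from 0.35 for LSS with CYP51A1 to 0.97 for SQLE with HSD17B7. Over the 9 libraries without TSA the median was 0.96, from 0.83 for MSMO1 with EBP to 0.99 for HSD17B7 with DHCR7. These points share libraries, the untreated partners and 1 scaling factor per library, and the values are a description.

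Among 13658 other genes with a mean of at least 2 scaled CPM, a pattern close to the members' mean over the 12 libraries was that of MVD, a decarboxylase of the mevalonate route (r = 0.96). HM13 (a signal peptide peptidase), HSD17B12 (a reductase of long-chain fatty acid elongation) and ACSS2 (acetyl-CoA synthetase) followed at 0.96. SREBF2, which encodes SREBP2, WBP2 and FASN, the fatty acid synthase, stood at 0.95, CD9 at 0.94 and TMEM150A at 0.93. MVD had within-line log2 values of 1.58, 2.32 and 1.90 under GSK126, 0.87, 1.63 and 0.81 under S2101 and 1.15, 0.92 and 0.39 under TSA.

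Other lists of the sterol system were read in the same fit, where edgeR called 0 of their genes under GSK126 or S2101. Over all genes tested, 22.4% were higher in all 3 lines under GSK126 and 18.3% under S2101. An unadjusted p below 0.05 was reached by 2784 and 821 genes, and DESeq2 called 3.48% and 0.116% higher. Under TSA edgeR called 17.1% of genes higher and 17.1% lower. Of 9 mevalonate genes before squalene, 8 were higher in all 3 lines under GSK126 (median 1.19) and 9 under S2101 (median 0.83), and 8 and 4 had an unadjusted p below 0.05. DESeq2 called 8 and 2 of them higher. HMGCS1, the synthase that makes HMG-CoA, had log2 changes of 2.25 under GSK126 and 1.15 under S2101, and MVD 1.13 under S2101. Under TSA edgeR called 3 of the 9 higher, IDI1 (2.10), PMVK (0.86) and MVD (0.86), and 2 lower, of which ACAT2 (-0.91) was the larger in size. Over all the related lists, 18 of 44 genes tested were called under TSA, beside 34.1% of all genes. Of the 18, 1 was still called without MHCC97H, 0 without A549 and 17 without HCT116, and of the 5598 called over all genes 1076, 12 and 4587 were.

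Of 7 other enzymes and partners of the sterol steps, 5 were higher in all 3 lines under GSK126 (median 0.89) and 4 under S2101 (median 0.55), and 5 and 3 had an unadjusted p below 0.05. DESeq2 called 4 higher and 1 lower under GSK126, and 0 under S2101. FDFT1, the squalene synthase, stood at 1.68 and 1.21, and TM7SF2, a reductase that acts just after CYP51A1, at 1.67 and 1.88. Under TSA TM7SF2 rose by 3.48 (adjusted p = 0.00353) and EBPL, an EBP-like protein, fell by 1.23 (adjusted p = 0.00506). TM7SF2 and CYP51A1 transcripts thus moved in opposite directions under TSA. LBR, of the same list, went the way of CYP51A1, at -0.65 without a call (edgeR adjusted p = 0.0554). Its within-line values were -0.75, -0.35 and -0.94. Untreated LBR stood at 181, 143 and 150 scaled CPM, above TM7SF2 in each line. These are changes of single genes, and the steps themselves were not tested.

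Of 12 genes of sterol sensing and uptake, 9 were higher in all 3 lines under GSK126 (median 1.00) and 8 under S2101 (median 0.59), and 7 and 4 had an unadjusted p below 0.05. DESeq2 called 6 higher under GSK126 and 0 under S2101. INSIG1, which holds SREBP in the endoplasmic reticulum, stood at 2.60 and 1.56. Under TSA 4 were called higher, with INSIG1 at 3.56, SREBF1 at 2.73 and NPC2 at 1.00 the largest, and 1 lower, the SREBP protease MBTPS2 (-0.73). SREBF1 moved little in HCT116 under TSA, at a within-line 0.13 against 3.49 in MHCC97H and 3.87 in A549. Of the related-list genes called higher under TSA, all but PMVK had their lowest within-line value in HCT116. The same share over all genes called higher was not counted. Of the 5598 genes called over all, 4587 were still called without HCT116, so this is not particular to the lists. IDI1 was at 0.32 there and LPCAT3 at 0.20, but TM7SF2 was at 1.30 and INSIG1 at 0.93.

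Of 8 genes of fatty acid synthesis under SREBP, 7 were higher in all 3 lines under GSK126 (median 1.38), with ACSS2 at 2.53 and the desaturase SCD at 1.89. Under S2101 the same count was 7 (median 0.79), with ACSS2 at 1.56 and SCD at 1.07. Unadjusted p was below 0.05 for 7 and 6 of them, and DESeq2 called 6 and 1 higher. Under TSA 1 was called higher (ACSS2, 1.11) and 2 lower, the elongase ELOVL6 (-1.79) and the desaturase FADS2 (-1.60). Of 6 genes of cholesterol efflux, LXR and its targets, 1 was higher in all 3 lines under GSK126 (median -0.10) and 2 under S2101 (median 0.16). The list includes NR1H2 and NR1H3, which encode LXR itself. Under either compound 0 had an unadjusted p below 0.05 and DESeq2 called 0. The exporter ABCA1 stood at -1.12 and -0.54 under GSK126 and S2101, and was called lower under GSK126 without the TSA libraries (-1.13, edgeR adjusted p = 0.0469), as 1 of the 6. In that fit edgeR called 7 of the 9 mevalonate genes, 7 of the 12 of sensing and uptake and 7 of the 8 of fatty acid synthesis higher under GSK126, and 4 higher and 1 lower of the 7 other enzymes and partners. Over all genes it called 1044 higher (6.62%) and 1080 lower. Also of the efflux list, MYLIP, a ligase for the LDL receptor, stood at -0.45 under GSK126 and ABCG1 at 0.33 under S2101. Under TSA 3 of the 6 were called higher, ABCG1 (2.58), LPCAT3 (1.49) and MYLIP (1.47).

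Turnover of squalene epoxidase and sterol esterification had 2 tested genes, with 0 called by edgeR or DESeq2 and 0 at an unadjusted p below 0.05 under any compound. MARCHF6, the ligase that marks SQLE protein for breakdown, stood at 0.19 under GSK126, 0.18 under S2101 and 0.50 under TSA, and SOAT1, which esterifies cholesterol, at 0.11, 0.19 and 0.59.

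**Figure D4:**
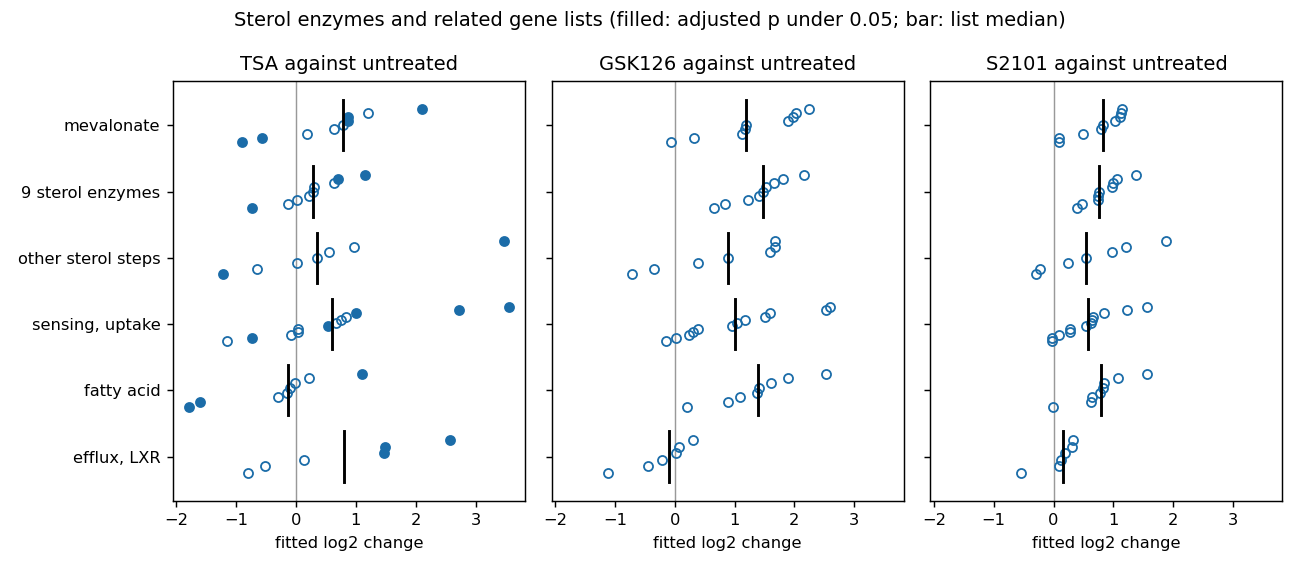
Fitted log2 change against untreated (horizontal axis) of each tested gene of the 9 sterol enzymes and 5 related lists (rows), for TSA, GSK126 and S2101; each circle is a gene, filled where the edgeR adjusted p is under 0.05, and the bar is the list's median. No circle is filled under GSK126 or S2101, where the bar of the 9 enzymes is at 1.48 and 0.76, and the efflux list has medians of -0.10 and 0.16.

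Over all conditions the lines held different amounts of these transcripts. MHCC97H was higher than HCT116 for 7 of 9 members (27.4% of genes called higher), from 0.63 for CYP51A1 to 1.58 for SQLE on the log2 scale, with NSDHL and EBP both at 1.57 (adjusted p = 2.97e-05 and 4.11e-05). LSS (0.21, adjusted p = 0.398) and HSD17B7 (-0.45, adjusted p = 0.0719) were not called. A549 was higher than HCT116 for 6 (23.1% of genes): SQLE 1.20, NSDHL 1.05, MSMO1 0.88, EBP 0.85, CYP51A1 0.71 and LSS 0.63. HCT116 was the one line grown in RPMI 1640.

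MHCC97H and A549, grown in the same medium, differed for 4 members. SC5D (0.87), EBP (0.73) and NSDHL (0.53) were higher in MHCC97H (20.7% of genes), and HSD17B7 was lower there (-0.90, adjusted p = 0.00484; 22.8% of genes). For CYP51A1 the difference was -0.07 with a 95% interval from -0.41 to 0.26, and for SQLE 0.38 with one from -0.23 to 0.99.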

How the data were processed

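Per the labels, poly(A) RNA was turned into NEBNext Ultra libraries. Per the file headers, the authors deposited for each of the 12 libraries a raw read count per gene and an RPKM value based on the longest transcript. The submitters' processing notes name the build as GRCh38 and as hg38. Which aligner and counter were used, and whether strand was read, is not given in the sources used here. Entries without a gene or count, in 11 of 12 files, were left out.

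Counts were tested with edgeR 4.0.16 (R 4.3.3): TMM scaling (factors 0.89 to 1.11), filterByExpr by condition, and the quasi-likelihood F test with condition and cell line as terms, on all 12 libraries (6 residual degrees of freedom). A call is a Benjamini-Hochberg adjusted p under 0.05 over 16394 genes, in 6 contrasts of conditions and 3 of lines. The line is the pairing term, because each line gives 1 library per condition: deviations of same-line libraries correlated at 0.71 to 0.95 in 18 pairs, and of different lines at -0.64 to -0.25 in 48. The script was tested on simulated counts in which 200 genes were changed under GSK126, with no other change between conditions. It called 20% of the genes changed 2-fold and 85% of those changed 4-fold, and 8.7% of called genes were unchanged. Within-line changes are differences of log2(TMM-scaled CPM + 1). Alternatives were RLE scaling, other filters, no line term, left-out libraries, the compared libraries alone and DESeq2 1.42.0. A full-design filter and the fit on 8 libraries, without TSA and the A549 S2101 library, were chosen after seeing the data.

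All members are named with their fitted changes for GSK126 and for S2101 against untreated, and some of them in each other contrast. Of each other list the called genes are named, at most 4 per contrast, or, with no call, the 2 that changed most. LBR under TSA is named in addition. Like genes are the 10 with the highest Pearson r to the members' line-centred mean. Some genes that these rules pick are not reported here. Members and lists were chosen with earlier results of these data known.

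Promoter sequences are from RefSeq on GRCh38.p14.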

Additional observations from a re-analysis of the deposited data

Results flagged for a closer look

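Under TSA, 3 members moved in opposite directions in different lines, by at least 1.25-fold each way. The within-line log2 change of SQLE was 0.82 in MHCC97H and 0.38 in A549 but -0.64 in HCT116. For HSD17B7 it was 0.58 and 0.32 against -0.34, in the same order. For MSMO1 it was 0.41 in A549 and -0.35 in HCT116, with -0.02 in MHCC97H. With 1 library per line and condition the difference between lines was not tested. The share of all genes tested that met the same rule was not counted. These opposite changes are therefore not shown to be particular to the members.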

How the results depend on the processing

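In GSK126 against untreated, the count of members called went from 0 to 3 with no filter on low counts, 2 with the 10 CPM filter, 9 without the TSA libraries, 8 with only the libraries compared, 9 by DESeq2 and 9 without the TSA and A549 S2101 libraries; in S2101 against untreated, from 0 to 1 with only the libraries compared and 4 by DESeq2. The count under TSA, 3, became 0 without the replicate block and 0 with only the libraries compared, with a range of 0 to 4 when 1 line was left out. TSA against GSK126, 7, became 0 without the replicate block, 1 with only the libraries compared and 0 to 6 when 1 line was left out. TSA against S2101, 4, became 2 with the 10 CPM filter, 0 without the replicate block, 0 with only the libraries compared, 0 to 2 when 1 line was left out and 2 without the A549 S2101 library. Between lines, without the block, counts became 0 (from 4) for MHCC97H against A549, 2 (from 7) for MHCC97H against HCT116 and 2 (from 6) for A549 against HCT116. Over all genes 4645 (from 7130), 6631 (from 9041) and 4825 (from 7232) were then called, in the same order. In TSA against untreated, GSK126 and S2101, all-gene calls without the block were 260, 14 and 0, from 5598, 4707 and 4306. With only the libraries compared they were 0, 135 and 0. Other settings left each count of members within 1.5 times, with the call of DHCR7 under TSA lost with no filter on low counts and without the A549 S2101 library. The cause was not tested. Leaving out a line also leaves fewer samples, and the counts differed with the line left out.

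Signs turned for values near 0. Scaled by library totals, the within-line change under TSA became 0.18 for MSMO1 in MHCC97H and 0.07 for EBP in A549. Under TSA, EBP became 0.03 with the 10 CPM filter and 0.00 without the replicate block. Leaving out 1 line at a time gave EBP -0.31 to 0.10, SQLE -0.07 to 0.66, MSMO1 -0.12 to 0.20 and MARCHF6 -0.21 to 0.86 under TSA, and SOAT1 -0.07 to 0.27 under GSK126. In TSA against S2101, NSDHL became 0.02 with the 10 CPM filter and SC5D 0.02 with it and 0.03 without the block. The range with 1 line or the A549 S2101 library left out was -0.14 to 0.03 for NSDHL, with 0.03 without that library, and -0.44 to 0.18 for SC5D, with 0.00 without it. Over all genes, calls under TSA ran from 0 with only the libraries compared to 6579 by DESeq2 (5598 as reported), and under GSK126 from 0 to 2124 without the TSA libraries.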
